A study of Mus musculus with 6 samples.

Results

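The genes described here encode the machinery that brings nuclear-encoded proteins into mitochondria, in mouse NIH/3T3 fibroblasts with and without knockdown of Aldoa. Members were taken by symbol: every Timm or Tomm gene with a number in its name, plus Samm50, Mtx1, Mtx2, Pmpca, Pmpcb, Grpel1, Grpel2, Dnajc19, Pam16, Chchd4 and Gfer, without pseudogene symbols. The rule found 30 of the 18001 genes in the expression table and used no measured value. Pam16, Tomm6, Timm10b, Timm21 and Timm8a2 had no row under the rule and were not analysed here, and Timm29 stood in the table as 1810026J23Rik, outside the symbol rule.

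Poly(A) RNA was sequenced in 6 libraries from NIH/3T3, an immortalised line derived from mouse embryonic fibroblasts, so every value describes a single cell line. The siCtrl group (3 libraries) received non-targeting control siRNAs and the siAldoa group (3 libraries) received siRNAs against Aldoa, the gene of the glycolytic enzyme aldolase A. Both groups were transfected, grown in the same serum-containing DMEM and harvested after 48 h, and the labels name no further genetic change. The replicates are called biological in the study's description. The comparison asks how loss of Aldoa changed the mRNA levels of the import genes.

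Library depth lay between 3692341 and 3771129 reads on genes. Aldoa itself fell from 522, 536 and 545 CPM (reads scaled to the effective library size) in the siCtrl libraries to 62.9, 69.2 and 72.0 CPM in the siAldoa libraries (log2 fold change -2.96). Of the fibroblast markers all 9 were present, and their summed level was 13107 to 13644 CPM in siCtrl and 10851 to 11523 CPM in siAldoa. In the test described below 4 markers were lower and 4 higher (44.4% each), beside 10.0% and 10.4% of all genes. Among them Col1a2 kept 73.5% of its siCtrl level and Pdgfrb stood at 225%. The part of this marker change in the results below was not tested. Summed markers of epithelial, blood and endothelial cells stayed at or under 10.4 CPM in every library. Replicates 1 and 2 of a group lay closer to each other than to replicate 3. Between replicates 1 and 2 the chi-square per degree of freedom was 1.12 in siCtrl and 1.11 in siAldoa, where counting noise alone gives 1. Against replicate 3 it was 2.07 to 3.24. No libraries were merged, and the p-values below take the 3 libraries of a group as independent. Whether replicates 1 and 2 are as independent of each other as of replicate 3 was not tested.

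Nearly all mitochondrial proteins are made in the cytosol and cross the outer membrane through the TOM complex, in which receptors recognise the precursor and the Tomm40 channel lets it pass. From there, precursors with a presequence enter the matrix through the TIM23 complex and its motor, carrier proteins reach the inner membrane through small TIM chaperones and TIM22, beta-barrel proteins are built into the outer membrane by the SAM complex, and small cysteine-rich proteins are trapped between the membranes by a disulfide relay. In the matrix the processing peptidase cuts the presequence off. Many genes of this kind carry binding sequences for the ETS factor GABP and for NRF1 near their start sites, and both factors are classical regulators of nuclear genes for mitochondria.

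For 27 of the 30 members a RefSeq promoter sequence (GRCm38.p6) of 300 bases was found, 250 before and 50 after the start. The ETS core CCGGAAG, searched on both strands, was present in 11 of these 27 genes (40.7%), against 9.93% of all 27025 genes with a promoter sequence and 17.8% of the 11192 such genes that were in the expression table. It was found in 4 of the 8 members that passed the expression test described below and in 7 of the 19 that did not. The other letters were rarer. The NRF1 core GCATGCGC stood in Grpel1 and Timm13 (7.41%, against 3.05% of all genes with a promoter and 5.41% of those in the table), the E-box CACGTG in Timm10, Timm8a1, Timm9, Tomm20 and Tomm20l (18.5% against 8.09% and 10.98%), the YY1 core AAGATGGCG in Mtx1 and Timm50 (7.41% against 1.64% and 3.10%), and the CRE TGACGTCA in no member (against 2.03% and 3.29%). The CCAAT box, 5 letters and therefore frequent, stood in 9 members (33.3% against 41.1% and 43.0%). The GC content of the member promoters had a median of 60.0%, against 52.7% of all promoters, and its part in these shares was not tested. These matches are a description of the letters and were not tested.

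Shown are the 150 bases before the start of 5 members that passed the expression test: the 4 with an ETS core, because it is the most frequent of the longer motifs, and Tomm5, the member with the lowest p, whose window held none of the 6 motifs. Capitals mark the ETS core on either strand, and in Tomm22 a match on each strand overlaps.
Tomm22, chr15:79670718-79670867, plus strand: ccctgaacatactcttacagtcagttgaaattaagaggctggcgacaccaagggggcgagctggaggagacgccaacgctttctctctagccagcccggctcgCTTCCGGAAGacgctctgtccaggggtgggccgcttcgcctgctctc
Pmpca, chr2:26389198-26389347, plus strand: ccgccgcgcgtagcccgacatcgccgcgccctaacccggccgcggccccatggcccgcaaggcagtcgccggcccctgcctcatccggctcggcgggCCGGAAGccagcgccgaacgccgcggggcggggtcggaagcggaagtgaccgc
Pmpcb, chr5:21737010-21737159, plus strand: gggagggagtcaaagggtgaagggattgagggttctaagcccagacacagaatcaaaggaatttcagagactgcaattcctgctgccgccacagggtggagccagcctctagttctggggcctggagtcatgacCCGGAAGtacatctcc
Mtx2, chr2:74825662-74825811, plus strand: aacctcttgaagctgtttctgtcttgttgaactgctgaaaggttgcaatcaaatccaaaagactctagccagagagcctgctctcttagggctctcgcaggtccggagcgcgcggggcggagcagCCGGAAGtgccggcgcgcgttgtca
Tomm5, chr4:45108114-45108263, minus strand: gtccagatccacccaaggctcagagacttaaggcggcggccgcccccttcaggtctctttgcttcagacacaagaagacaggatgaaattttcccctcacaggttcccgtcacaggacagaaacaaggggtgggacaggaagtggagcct

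Across the machinery, 7 of the 30 members (23.3%) were lower in siAldoa, 1 (3.33%) was higher and 22 did not pass the test (limma, log2(CPM + 1) as input, Benjamini-Hochberg adjusted over all 18001 genes, threshold 0.05). In the same fit 10.0% of all genes were called lower and 10.4% higher. The genes that fell were Tomm5, Timm13, Tomm20, Tomm22, Pmpca, Tomm40 and Mtx2, and the gene that rose was Pmpcb. The log2 fold change was negative for 21 members and positive for 9, with a median of -0.10, against -0.0023 over all genes. In 11 members (36.7%) every siAldoa library lay below every siCtrl library and in 5 (16.7%) every one lay above, whereas 17.1% and 16.7% of all genes showed such a separation. All 8 members that passed were among these 16. The shares over all genes include 1834 genes with fewer than 12 reads over the 6 libraries. The members had a median siCtrl level of 56.0 CPM, and shares among genes of like level were not computed.

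The shift was similar in the 3 siAldoa libraries. Against the siCtrl mean, the median log2 difference over the 30 members was -0.094, -0.12 and -0.13 in siAldoa replicates 1, 2 and 3, and over the 8 TOM genes it was -0.15, -0.18 and -0.19. In these bulk samples, less RNA per cell and fewer cells that express a gene cannot be told apart. The changes were modest: the member that fell most in the fit, Tomm5, kept 71.5% of its siCtrl level, and the other 6 that fell kept 80.0% to 87.7%.

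**Figure D1:**
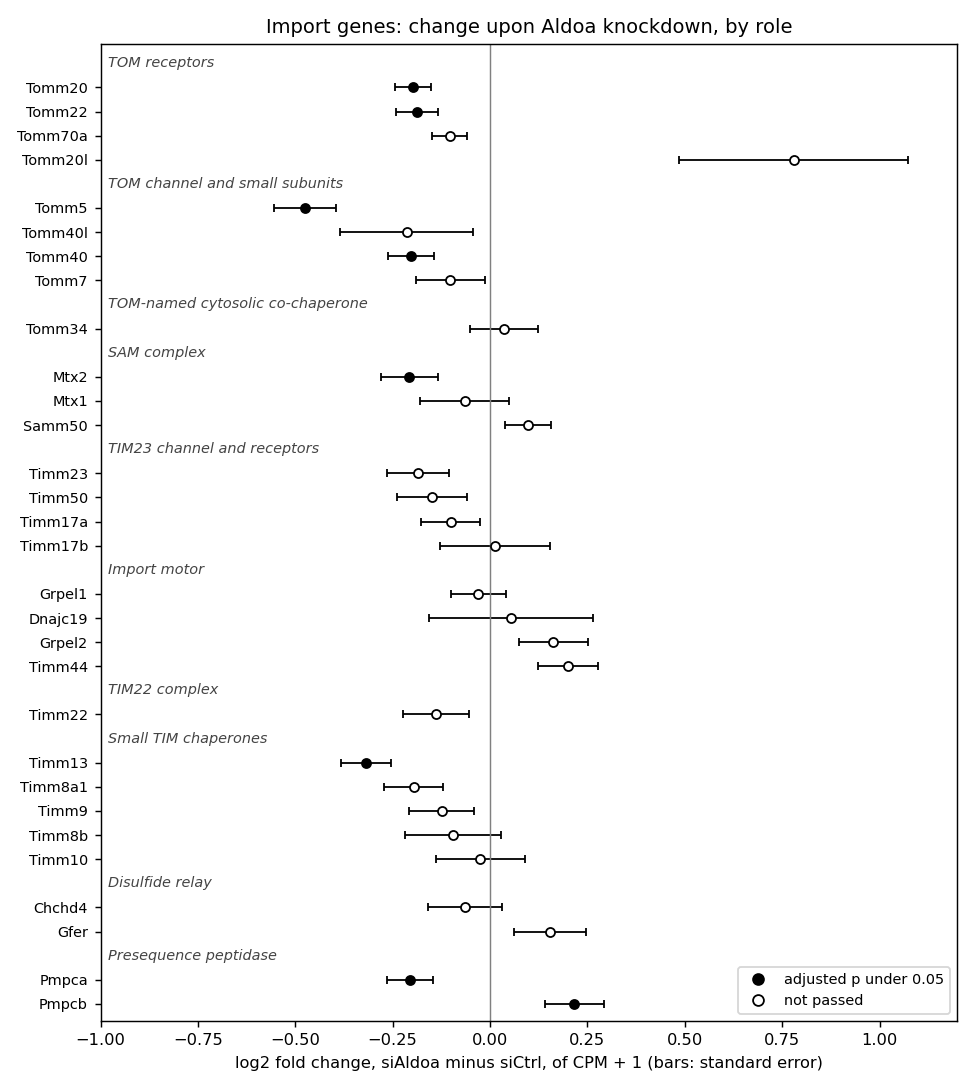
Log2 fold change of CPM + 1 (x axis, siAldoa minus siCtrl, 3 libraries each) for the 30 import genes, grouped by role. Points are the fitted differences, bars their standard errors, and filled points passed the adjusted threshold of 0.05. The filled points of the TOM groups all lie left of 0, no inner-membrane translocase or motor gene is filled, and Pmpca (-0.21) and Pmpcb (0.22) lie on opposite sides. Reads on near-identical copies, described below, are left out, and with them Timm23 passed as lower.

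The TOM complex held 4 of the 7 decreases. Of its 8 genes in the table Tomm5, Tomm20, Tomm22 and Tomm40 fell in limma. The count of lower TOM genes was 4 in edgeR and 2 in DESeq2, where only Tomm5 and Tomm20 kept the call. None passed as higher in limma (1 at an unadjusted p under 0.05, 0 in edgeR and in DESeq2). The median log2 fold change of the 8 genes was -0.19. Over all genes the share called lower was 10.0% in limma, 10.4% in edgeR and 6.21% in DESeq2. Tomm20 and Tomm22, the receptors that bind presequences first, both fell. The receptor for hydrophobic carrier precursors, Tomm70 (listed as Tomm70a), did not pass, although its siAldoa values also lay below its siCtrl values (log2 fold change -0.10). No difference between the receptors was tested. The Tomm40 channel and the small subunit Tomm5 fell as well.

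Tomm5 (ENSMUSG00000078713, chr4:45105208-45108114, minus strand), a small subunit that sits beside the channel, was measured at 58.9, 65.7 and 63.0 CPM in the siCtrl libraries and 44.8, 42.2 and 47.1 CPM in the siAldoa libraries. The siAldoa libraries lay well below the siCtrl libraries, with 158 to 240 reads behind each value. Its log2 fold change was -0.47 ± 0.079 (SE), with the lowest adjusted p among the members (9.86e-05). The call held under all 18 alternatives tried (adjusted p up to 0.0454). Among these, TMM scaling and the summing of copies left its values as in the main fit and could not change the call.

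Tomm20 (ENSMUSG00000093904, chr8:126930667-126945844, minus strand), a presequence receptor, stood at 225, 216 and 231 CPM in the siCtrl libraries and 199, 195 and 190.4 CPM in the siAldoa libraries. No siAldoa library reached a siCtrl library, and the spread within each group was small (SD 7.76 and 4.29 CPM). The call (log2 fold change -0.20 ± 0.046 SE, adjusted p = 0.00296) held when any single library was left out. Reads on Tomm20 could be shared with 7 copies, described below.

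Tomm22 (ENSMUSG00000022427, chr15:79670861-79673400, plus strand), the central receptor that also organises the complex, was at 139, 146 and 138 CPM in the siCtrl libraries and 127, 119 and 125 CPM in the siAldoa libraries. The groups did not overlap (log2 fold change -0.19 ± 0.054 SE, adjusted p = 0.015). It missed the threshold without siCtrl replicate 2 (adjusted p = 0.0803) and without siAldoa replicate 2 (0.0846), and with DESeq2 on the recovered reads (0.0807).

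Tomm40 (ENSMUSG00000002984, chr7:19701313-19715438, minus strand), the beta-barrel channel itself, had 142, 128 and 131 CPM in the siCtrl libraries and 120.1, 109 and 119.9 CPM in the siAldoa libraries. All siAldoa values were below all siCtrl values (log2 fold change -0.20 ± 0.059 SE, adjusted p = 0.0164). The call was lost without siCtrl replicate 1 (adjusted p = 0.117), siCtrl replicate 3 (0.0514) or siAldoa replicate 2 (0.12), and with DESeq2 (0.072).

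The other TOM genes did not pass. Tomm70a, the most abundant member in CPM, had 337, 349 and 331 CPM in the siCtrl libraries and 325, 327 and 294 CPM in the siAldoa libraries (adjusted p = 0.112), the lowest siCtrl value being just above the highest siAldoa value. The small subunit Tomm7 and the channel paralogue Tomm40l overlapped between groups (adjusted p = 0.48 and 0.437). Tomm20l, a Tomm20-like gene, was barely detected, with 1 to 11 reads per library and 0.274, 1.09 and 1.85 CPM in the siCtrl libraries and 2.16, 2.14 and 2.88 CPM in the siAldoa libraries. Its siAldoa values lay above the siCtrl values (log2 fold change 0.78 ± 0.29 SE, adjusted p = 0.0647), and at so few reads the size of that difference depended on the pseudocount and, of the alternatives tried, it passed only without siCtrl replicate 3 (0.0327). Tomm34, a cytosolic co-chaperone of precursors that carries the Tomm name but is no subunit, was 40.7 ± 2.18 CPM in siCtrl and 41.7 ± 0.345 CPM in siAldoa (SD, n = 3 each) and the groups overlapped.

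**Figure D2:**
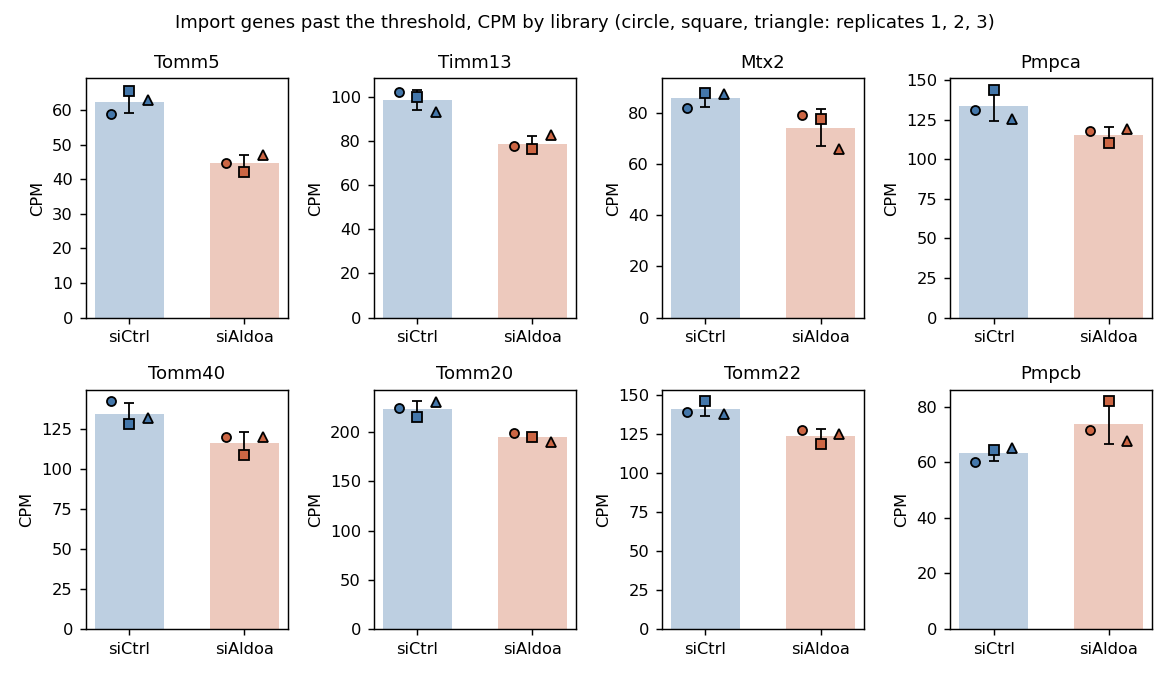
CPM (y axis, from 0) of the 8 import genes that passed the test, in siCtrl and siAldoa. Bars are means of 3 libraries with the SD, and symbols are the single libraries. In 7 genes the siAldoa symbols lie below every siCtrl symbol, and in Pmpcb they lie above.

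Within the SAM complex, which folds beta-barrels such as Tomm40 into the outer membrane, 1 of 3 genes (33.3%) fell in limma. None passed as higher (0 at an unadjusted p under 0.05, in edgeR and in DESeq2). The limma shares over all genes were 10.0% lower and 10.4% higher, and with 3 genes they cannot be compared closely. Mtx2 (ENSMUSG00000027099, chr2:74825803-74878431, plus strand), a metaxin on the cytosolic face, was at 81.6, 87.8 and 87.0 CPM in the siCtrl libraries and 79.1, 77.5 and 65.7 CPM in the siAldoa libraries. The siAldoa libraries were all lower, replicate 3 most so (log2 fold change -0.21 ± 0.073 SE, adjusted p = 0.0466). With the replicate number as a block it missed the threshold (adjusted p = 0.0844), as it did when any single library was left out (0.0518 to 0.258) and with DESeq2 (0.167). Its partner Mtx1 overlapped between groups at 27.4 ± 2.48 CPM in siCtrl and 26.2 ± 2.56 CPM in siAldoa (SD, n = 3 each). Samm50, the barrel at the centre of the complex, was 110.2 ± 5.05 CPM in siCtrl and 118 ± 6.32 CPM in siAldoa, and its groups overlapped too (adjusted p = 0.284).

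At the inner membrane no gene of the TIM23 complex, its motor or the TIM22 complex passed the test (0 of 9 in limma, in edgeR and in DESeq2, against 2 at an unadjusted p under 0.05). Their median log2 fold change was -0.030. Over all genes limma called 10.0% lower and 10.4% higher. The channel gene Timm23 was at 52.9, 50.3 and 51.1 CPM in the siCtrl libraries and 47.2, 44.1 and 44.0 CPM in the siAldoa libraries. These values did not overlap, yet the call was missed (log2 fold change -0.19 ± 0.080 SE, adjusted p = 0.11). With its copies summed, an alternative described below, Timm23 passed as lower in limma (log2 fold change -0.21 ± 0.061 SE, adjusted p = 0.017). Timm50, the receptor that receives presequences from TOM, stayed within the range of its siCtrl libraries in 3 of 3 siAldoa libraries (64.4, 60.2 and 48.7 CPM in the siCtrl libraries and 54.5, 49.7 and 50.8 CPM in the siAldoa libraries, adjusted p = 0.287) and, of the alternatives tried, it passed only without siCtrl replicate 3 (adjusted p = 0.0457). Timm17a and Timm17b, alternative partners of the channel, had log2 fold changes of -0.10 and 0.013, both with overlapping groups. Timm22, the channel for carrier proteins, was at 45.5, 45.7 and 42.6 CPM in the siCtrl libraries and 41.6, 39.6 and 40.1 CPM in the siAldoa libraries (adjusted p = 0.287).

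In the import motor, 3 of 4 fitted differences were positive and none passed (0 in limma, edgeR and DESeq2, against 1 at an unadjusted p under 0.05). Of all genes limma called 10.0% lower and 10.4% higher. Timm44, which tethers the Hsp70 motor to the channel, showed 60.0, 73.9 and 67.2 CPM in the siCtrl libraries and 73.9, 74.8 and 82.0 CPM in the siAldoa libraries. The highest siCtrl library and the lowest siAldoa library were nearly equal (log2 fold change 0.20 ± 0.077 SE, adjusted p = 0.0724), and the gene passed without siCtrl replicate 2 (0.036) and with the filter on low values (0.0461). Grpel1 and Grpel2, the nucleotide exchange factors of the motor, had log2 fold changes of -0.030 (groups overlapping) and 0.16 (siAldoa above, adjusted p = 0.227). The J protein Dnajc19 had only 21 to 34 reads per library, most of its signal being on a copy (below). Hspa9, the mitochondrial Hsp70 that pulls the precursor in and is no member by the rule, fell from 1276, 1269.6 and 1279.7 to 1157, 1177 and 1186 CPM (log2 fold change -0.12 ± 0.029 SE, adjusted p = 0.00374).

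Among the small TIM chaperones, which escort hydrophobic precursors across the intermembrane space, Timm13 fell and the other 4 did not pass, although all 5 fitted differences were negative. Timm13 (ENSMUSG00000020219, chr10:80899450-80900969, minus strand), the partner of Timm8 proteins, stood at 102, 99.8 and 93.4 CPM in the siCtrl libraries and 77.7, 76.2 and 82.7 CPM in the siAldoa libraries. Every siAldoa library was below the lowest siCtrl library (log2 fold change -0.32 ± 0.064 SE, adjusted p = 0.00075), and the call held when any single library was left out. Timm8a1, whose human counterpart is mutated in deafness-dystonia syndrome, was at 76.1, 77.4 and 91.8 CPM in the siCtrl libraries and 66.7, 73.2 and 73.3 CPM in the siAldoa libraries (adjusted p = 0.0711, and 0.0445 with the filter on low values). Timm9, Timm10 and Timm8b had overlapping groups, with log2 fold changes of -0.12, -0.025 and -0.10. The disulfide relay did not pass the test (0 of 2 in limma, edgeR and DESeq2, also at an unadjusted p under 0.05). Its receptor Chchd4 was 43.8 ± 4.54 CPM in siCtrl and 41.8 ± 3.90 CPM in siAldoa, and Gfer, the sulfhydryl oxidase that recharges it, was 36.8 ± 1.37 CPM in siCtrl and 41.1 ± 3.48 CPM in siAldoa (SD, n = 3 each, adjusted p = 0.716 and 0.275).

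The subunits of the matrix processing peptidase moved in opposite directions. Pmpca (ENSMUSG00000026926, chr2:26389339-26397122, plus strand), the subunit that binds the presequence, was at 131, 144 and 126 CPM in the siCtrl libraries and 118, 110.1 and 119 CPM in the siAldoa libraries. Pmpcb (ENSMUSG00000029017, chr5:21737141-21757152, plus strand), the catalytic subunit, was at 60.3, 64.6 and 65.1 CPM in the siCtrl libraries and 71.8, 82.1 and 67.8 CPM in the siAldoa libraries. The former fell and the latter rose, each without overlap between groups (for Pmpca, log2 fold change -0.21 ± 0.060 SE, adjusted p = 0.0158, and for Pmpcb, log2 fold change 0.22 ± 0.076 SE, adjusted p = 0.0472). With the replicate number as a block Pmpca remained called (adjusted p = 0.049) and Pmpcb did not (0.0688). Pmpca missed the threshold without siCtrl replicate 2 (0.124), siAldoa replicate 1 (0.0524) or siAldoa replicate 2 (0.109), Pmpcb when any single library other than siAldoa replicate 3 was left out (0.0932 to 0.272), and both with DESeq2 (0.0673 and 0.166).

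To compare such partners directly, the log2 ratio of their CPM + 1 was taken within each library for 8 pairs. The Pmpca to Pmpcb ratio was 1.11, 1.14 and 0.94 in siCtrl and 0.71, 0.42 and 0.80 in siAldoa on the log2 scale. It was lower in 3 of 3 siAldoa libraries, and the means differed by -0.42 (1.06 ± 0.11 against 0.64 ± 0.20, SD, n = 3 each). The 2-sided exact permutation test gave p = 0.1, the smallest value that 3 against 3 libraries allow, and 0.667 after adjustment over the 8 pairs, so this test could not pass the threshold at this number of libraries. The remaining 7 ratios overlapped between groups (exact p from 0.3 to 1). Among them the Mtx1 to Mtx2 ratio was -1.42, -1.78 and -1.63 in siCtrl and -1.50, -1.69 and -1.20 in siAldoa, and the Grpel1 to Grpel2 ratio was 1.07, 0.80 and 1.09 and 0.66, 0.90 and 0.82.

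**Figure D3:**
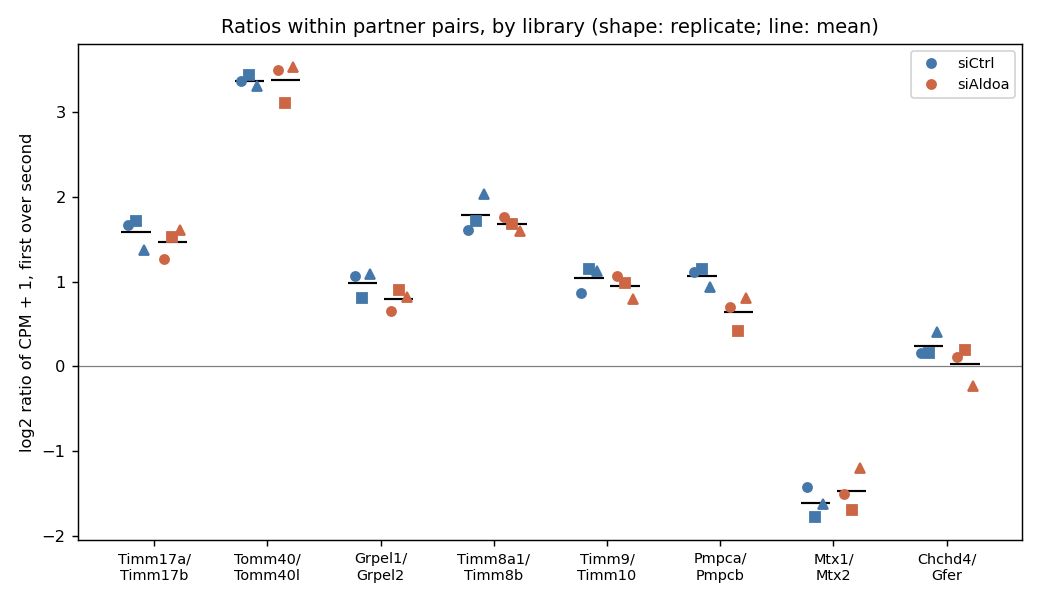
Log2 ratio of CPM + 1 within each library (y axis) for 8 pairs of partners or paralogues, siCtrl beside siAldoa. Symbols are single libraries and lines the means of 3. In 7 pairs the groups overlap, and for Pmpca over Pmpcb all siAldoa libraries lie below the siCtrl libraries.

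The RNA levels of the members were not equal. Per kilobase of merged exon, and with reads on near-identical copies (described below) left out, siCtrl levels ranged from 1.49 CPM for Tomm20l to 85.4 ± 2.67 CPM for Tomm22 (SD, n = 3). Behind Tomm22 came Tomm5 at 72.0 ± 3.92 and Timm13 at 71.9 ± 3.40, which did not differ beyond their spread. Dnajc19 (1.88) and Tomm40l (2.35) stood just above Tomm20l. This order depends on how reads were shared with the copies. With the copies summed over the length of the parent gene, Timm8a1 stood at 120.1 ± 7.39 and Tomm22 at 105 ± 2.92 CPM per kilobase. Timm23 stood at 83.6 ± 3.29, Tomm20 at 72.0 ± 3.07 and Dnajc19 at 9.79 ± 1.68. Timm8a1 then lay above Tomm22, and Timm23 above Tomm5 and Timm13. Tomm20 was level with Tomm5 and Timm13, and Dnajc19 no longer stood near the bottom. Merged exon lengths, from 518 to 9777 bases, count every annotated exon and so understate genes with long rare isoforms. Reads were aligned without splitting over introns, and the members have 2 to 16 merged exons. The part of this in the order was not tested.

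**Figure D4:**
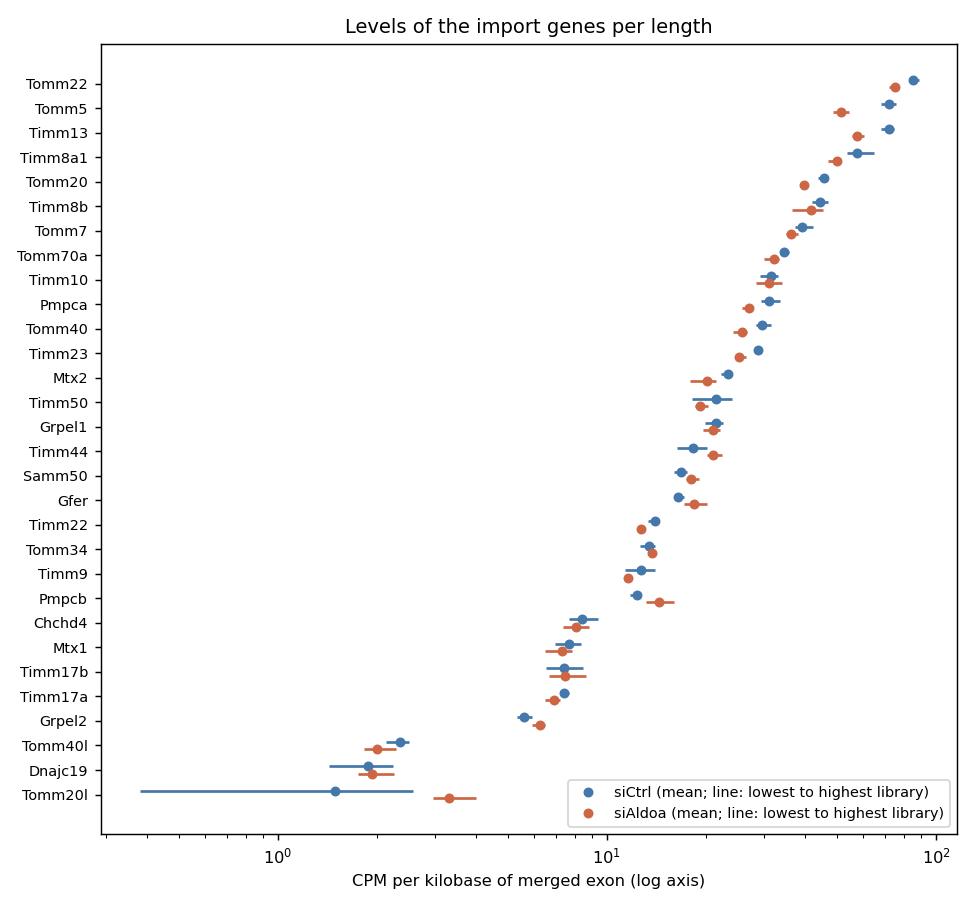
CPM per kilobase of merged exon (x axis, log scale) of the 30 import genes in siCtrl and siAldoa, ordered by the siCtrl mean. Points are means of 3 libraries and lines run from the lowest to the highest library. Without the reads on copies, Tomm22, Tomm5 and Timm13 stand at the top, and Tomm20l, Dnajc19 and Tomm40l at the bottom.

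Several import genes have processed copies elsewhere in the genome, and reads could be assigned to either. In GENCODE M21 transcripts, 7 members had a match in the table of at least 90% identity over at least 200 bases (14 copies in all). Tomm20 had 7, of which Gm14494 averaged 104 CPM in siCtrl and 91.3 CPM in siAldoa. Timm23 shared its sequence with Gm10273 (61.4 CPM in siCtrl and 51.0 CPM in siAldoa) and Gm10171 (36.5 CPM in siCtrl and 33.5 CPM in siAldoa), and Timm8a1 with Gm9797 (88.9 CPM in siCtrl and 78.8 CPM in siAldoa). Tomm22 matched Gm12906 (33.1 CPM in siCtrl and 32.1 CPM in siAldoa) and Chchd4 matched Gm5318, at 2.61 CPM in siCtrl and 2.48 CPM in siAldoa. For Dnajc19 the copy Dnajc19-ps carried 31.9 CPM in siCtrl and 24.0 CPM in siAldoa, more than the gene itself. Gfer matched a stretch of the much longer Dst transcript, which was not summed.

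Summing each gene with its copies, an alternative chosen after the data were seen, kept the 8 calls and added Timm23 and Timm8a1. Copies held 65.4% of the summed Timm23 signal, which was 152, 153 and 143 CPM in siCtrl and 134, 117 and 138 CPM in siAldoa (log2 fold change -0.21 ± 0.061 SE, adjusted p = 0.017). For Timm8a1 the copy held 52.3%, and the sum went from 172, 159.8 and 181 to 152, 151 and 147 CPM (log2 fold change -0.19 ± 0.053 SE, adjusted p = 0.0142). Neither sum overlapped between the groups. Summed Tomm20 (log2 fold change -0.22 ± 0.042 SE, adjusted p = 0.000447) and Tomm22 (log2 fold change -0.16 ± 0.053 SE, adjusted p = 0.0348) still fell. The sign of Dnajc19 turned from 0.054 to -0.29 (adjusted p = 0.061), with 78.4% of the sum on its copy.

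**Figure D5:**
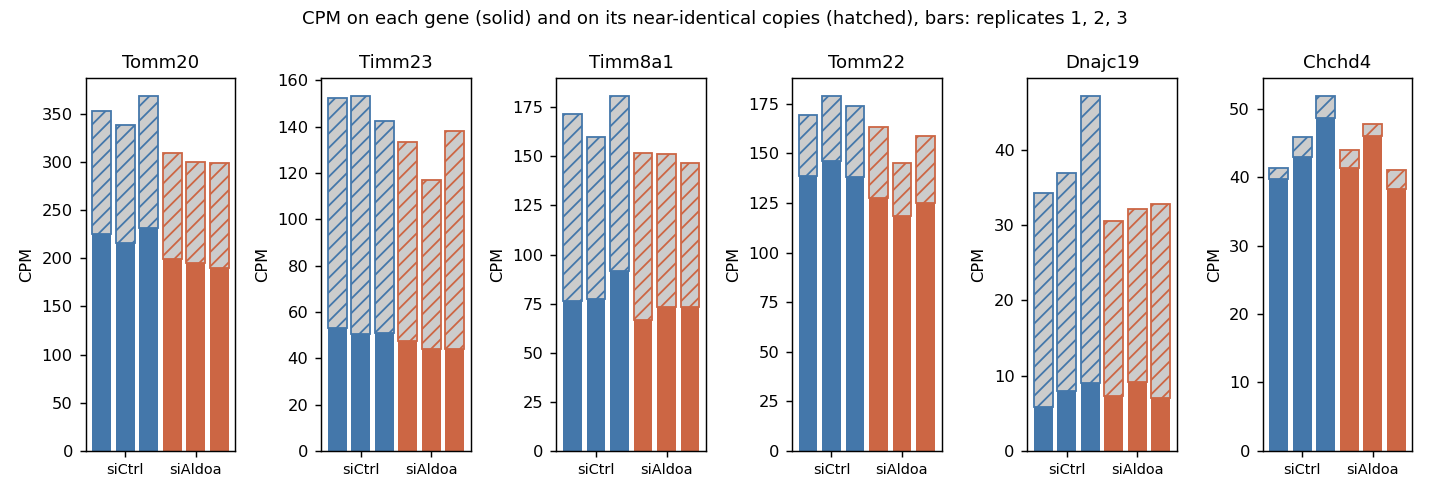
CPM per library (y axis, from 0) on 6 import genes (solid) and on their near-identical copies (hatched, stacked on top), with replicates 1, 2 and 3 of siCtrl and then of siAldoa as bars. The summed bars of Tomm20, Timm23, Timm8a1 and Tomm22 are all lower in siAldoa, and most of the Dnajc19 bar is its copy.

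Exons of 14 members overlap those of another annotated gene, mostly on the opposite strand. The library kit kept strand, but whether the counting used it is not given in the sources used here. The longest such overlap with a gene in the table among members that passed was Pmpca with Inpp5e (874 bases), where Inpp5e was 15.1 ± 1.53 CPM in siCtrl and 18.6 ± 0.451 CPM in siAldoa (SD, n = 3 each), the siAldoa values lying above the siCtrl values without passing the test. The overlaps of Timm13 with Tmprss9 (43 bases) and of Tomm70a with Nit2 (41 bases) were short. The members with few reads overlapped more abundant genes on the opposite strand. Dnajc19 shared 178 bases with Fxr1 (mean 95.3 CPM) and Tomm20l shared 49 bases with Timm9 (mean 51.9 CPM). Whether reads of these neighbours were counted on Dnajc19 or Tomm20l was not tested.

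The genes around the machinery were taken from lists by role. In limma 10.0% of all genes were called lower and 10.4% higher. Of the matrix chaperones and proteases 30.8% were lower and 0% higher. Of the other import and insertion factors 7.14% were lower and 7.14% higher. Of 13 matrix chaperones and proteases, 4 fell and 0 rose (median log2 fold change -0.16), the count of risen genes being 0 in limma, edgeR and DESeq2 and 1 at an unadjusted p under 0.05. Those that fell were the chaperonin genes Hspd1 (974 ± 6.67 CPM in siCtrl and 856 ± 15.7 CPM in siAldoa) and Hspe1 (228 ± 3.35 CPM in siCtrl and 193 ± 2.52 CPM in siAldoa), the protease gene Htra2 (53.3 ± 2.71 CPM in siCtrl and 42.2 ± 2.22 CPM in siAldoa) and the prohibitin gene Phb (122 ± 4.03 CPM in siCtrl and 104 ± 5.36 CPM in siAldoa), with SD over 3 libraries. The chaperonin folds freshly imported proteins. Of 14 other import and insertion factors, 1 fell and 1 rose (median log2 fold change -0.12), the former being Hspa9 and the latter the metaxin gene Mtx3 (33.7 ± 2.63 CPM in siCtrl and 43.2 ± 2.78 CPM in siAldoa, log2 fold change 0.35 ± 0.094 SE, adjusted p = 0.00931). With DESeq2 Htra2 and Mtx3 missed the threshold (adjusted p = 0.0534 and 0.0688). None of the 7 MICOS genes, which shape the cristae and contact TOM and SAM, passed in limma, edgeR or DESeq2 (2 at an unadjusted p under 0.05, median -0.081).

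On the cytosolic side, Hsp90aa1 and Stip1 fell (log2 fold change -0.30 ± 0.030 SE, adjusted p = 8.66e-08, and log2 fold change -0.23 ± 0.040 SE, adjusted p = 0.000169) and Hspa8 rose (log2 fold change 0.19 ± 0.031 SE, adjusted p = 7.27e-05) among 8 genes whose products escort precursors to Tomm70 and Tomm20. Of the clients, Vdac3 fell (log2 fold change -0.20 ± 0.059 SE, adjusted p = 0.0187) while Vdac1 and Vdac2, the other beta-barrel pores, did not pass. Of 14 cysteine-rich clients of the relay Cmc2, an assembly factor of cytochrome oxidase, was called (log2 fold change -0.53 ± 0.10 SE, adjusted p = 0.000392). Among 8 genes for surveillance of the outer membrane, the escort Ubqln2 fell (log2 fold change -0.29 ± 0.058 SE, adjusted p = 0.00069) and Pink1, the kinase that accumulates on mitochondria with blocked import, rose from 7.94, 4.65 and 5.29 to 10.8, 9.35 and 8.64 CPM (log2 fold change 0.63 ± 0.21 SE, adjusted p = 0.0393). Vdac3 and Pink1 missed the threshold with DESeq2 (adjusted p = 0.11 and 0.14), and Pink1 had only 17 to 40 reads per library. In limma the shares called lower and higher were 25.0% and 12.5% of the escorts and 33.3% and 0% of the beta-barrel clients. They were 7.14% and 0% of the relay clients, 12.5% and 12.5% of the surveillance genes, and 10.0% and 10.4% of all genes.

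Of 16 nuclear regulators of mitochondrial genes, 5 fell (31.25%) and 3 rose (18.75%), beside 10.0% and 10.4% of all genes. Gabpa, the DNA-binding subunit of GABP that recognises the ETS core printed above, was at 139.7, 148 and 149 CPM in the siCtrl libraries and 135, 135 and 118 CPM in the siAldoa libraries (log2 fold change -0.17 ± 0.059 SE, adjusted p = 0.0414, and 0.0821 with the replicate block and 0.133 with DESeq2). Its partner gene Gabpb2 rose from 142, 154 and 138 to 210.5, 194 and 201 CPM (log2 fold change 0.48 ± 0.053 SE, adjusted p = 3.79e-07). Esrra and Atf5 also rose (log2 fold change 0.60 ± 0.084 SE, adjusted p = 1.08e-05, and log2 fold change 0.30 ± 0.046 SE, adjusted p = 3.25e-05). Atf4, Ddit3 and Myc fell by 0.24, 0.40 and 0.29 on the log2 scale, and Tfam, which packages mitochondrial DNA, by 0.28 (adjusted p up to 0.00727). Nrf1 did not pass. Whether any of these bears on the import genes was not tested.

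Other nuclear-encoded mitochondrial proteins depend on import. Of 43 genes for the large mitochondrial ribosomal subunit, 8 fell and none passed as higher (0 in limma, edgeR and DESeq2, also at an unadjusted p under 0.05, median -0.13), and of 78 oxidative phosphorylation subunits 10 fell and 1 rose (median -0.051). The share called lower in limma was 18.6% and 12.8%, beside 23.3% of the import genes and 10.0% of all genes. With DESeq2 these shares were 11.6%, 7.69%, 10.0% and 6.21%, so the order of the import and ribosomal lists turned. No difference between these lists was tested.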

How the data were processed

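Poly(A) RNA of NIH/3T3 cells was sequenced in 3 siCtrl and 3 siAldoa libraries. Per the study's methods and labels, the authors aligned reads to mm10 with Bowtie2 2.2.7, which does not split reads over introns, drew the same number of reads from each library at random, assigned them to genes without a stated strand or multi-read setting, dropped genes with fewer than 12 reads and used edgeR. The deposited values are CPM per effective library size, made by the authors. They correspond to whole reads (100% of values within 0.001), although 1834 genes in the table had fewer than 12 reads over the 6 libraries. A further table of the authors' own fold changes and p-values was not used.

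CPM were analysed as log2(CPM + 1) with limma 3.58.1 (R 4.3.3, mean-variance trend, 2-sided, Benjamini-Hochberg over 18001 genes, threshold 0.05, no covariate, no filter on low values). Fold changes are on that scale and understate changes of low genes. Totals of 3692341 to 3771129 reads put 3 reads at 0.786 to 0.822 CPM. Partner ratios were compared by exact permutation. All members were named, with full values for those that passed. Coordinates and lengths came from GENCODE M21 (GRCm38), promoter sequences from RefSeq (GRCm38.p6), copies from blastn 2.17.0. Alternatives were edgeR 4.0.16 and DESeq2 1.42.0 on the recovered reads, another pseudocount (0.1), a filter, quantile and TMM scaling, no trend, the replicate block, libraries left out, and copies summed. The scripts were tested on simulated data. The members, gene lists and tests were chosen with earlier results of these data known. The limma p-values set the group difference against the spread between these libraries, moderated by the mean-variance trend over all genes.

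Replicate numbers were shared between groups, and the study spiked control RNA in at another step for replicate 1 than for 2 and 3. Over 4962 genes with a mean above 50 CPM, deviations from the group means correlated by 0.19, 0.16 and 0.42 between libraries of the same number. At a mean above 30 CPM the values were 0.080, 0.078 and 0.28, and siCtrl 2 with siAldoa 1, of different numbers, gave 0.23 at the former level. The main fit used no pairing, and the replicate number served as a block only in an alternative fit.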

Additional observations from a re-analysis of the deposited data

How the results depend on the processing

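The direction of all 8 called members was kept under the 18 alternatives. As their groups did not overlap, leaving libraries out could not turn it. The block, the filter, TMM scaling and the fit without trend kept the fold changes of the main fit. The call itself was kept under 18 alternatives for Tomm5, 15 for Timm13 and Tomm20, and 11 for Tomm22. It was kept under 10 for Pmpca and Tomm40, and under 5 for Mtx2 and Pmpcb. These counts include TMM scaling, which gave the adjusted p of the main fit again. They also include summed copies, which left the values of genes without copies as they were. Without the mean-variance trend 1 member was lower (Tomm5) and 0 higher, with 616 and 824 of all genes, and with DESeq2 3 were lower and 0 higher, with 1117 and 1066 of all genes. The member called higher was lost (0) with the pseudocount of 0.1 and with quantile normalization, and the filter on low values gave 2 (Pmpcb and Timm44). With the replicate block 6 members were lower and 0 higher, and 1559 and 1611 of all genes. Pmpcb and Mtx2 lost their call there and no other member changed. Leaving out libraries gave 1 to 6 members lower, 0 to 1 higher, 520 to 1371 genes lower and 494 to 1464 higher over all genes, and a member median of -0.12 to -0.091. Leaving out replicate 1, 2 or 3 of both groups kept 1, 2 and 2 calls. The number of partner ratios without overlap was 1 to 3 (1 with all libraries). Signs turned only in members that did not pass: over the left-out libraries the log2 fold change ran from -0.14 to 0.075 for Chchd4, -0.11 to 0.24 for Dnajc19, -0.10 to 0.057 for Grpel1, -0.13 to 0.014 for Mtx1, -0.092 to 0.050 for Timm10, -0.11 to 0.15 for Timm17b, -0.20 to 0.033 for Timm8b and -0.0052 to 0.075 for Tomm34. Quantile normalization gave -0.014 for Timm17b and -0.00098 for Tomm34, and summing copies, an alternative added after the data were seen, gave -0.29 for Dnajc19. For these changes the cause was not tested. At 1 to 11 reads Tomm20l allows no firm size.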

Other observations

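Mitochondrial carriers of the SLC25 family are the main clients of Tomm70, the small TIM chaperones and TIM22. Of 41 carrier genes in the table, 7 fell (17.1%), 5 rose (12.2%) and 29 did not pass, with a median log2 fold change of -0.012. Over all genes 10.0% were called lower and 10.4% higher. Slc25a4, the ADP/ATP carrier of heart and muscle type, fell from 461, 461 and 467 to 389, 397 and 399 CPM (log2 fold change -0.23 ± 0.036 SE, adjusted p = 5.1e-05), and Slc25a13, the aspartate-glutamate carrier, from 69.8, 65.9 and 72.5 to 54.8, 56.4 and 51.1 CPM (log2 fold change -0.35 ± 0.074 SE, adjusted p = 0.00106). Slc25a37, a mitochondrial iron importer, rose from 80.8, 94.4 and 96.3 to 109, 112 and 112 CPM (log2 fold change 0.30 ± 0.066 SE, adjusted p = 0.00189). The abundant phosphate carrier Slc25a3 was at 934, 894 and 942 CPM in siCtrl and 991, 1011 and 955 CPM in siAldoa, called without the replicate block (adjusted p = 0.0475) but not with it (0.0956), as was the citrate carrier Slc25a1 (-0.24, adjusted p = 0.0354 and 0.0815). The log2 fold changes of the other called carriers were -0.25 for Slc25a24, -0.38 for Slc25a40, -0.44 for Slc25a33, -0.17 for Slc25a39, 0.72 for Slc25a45, 0.44 for Slc25a27 and 0.78 for Slc25a14. With DESeq2 Slc25a1, Slc25a27 and Slc25a39 missed the threshold (adjusted p = 0.105, 0.0916 and 0.0566), Slc25a14 was given no adjusted p, and the other 8 kept their call.

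The gene of the TIM22 subunit Timm29, listed as 1810026J23Rik, was 48.0 ± 3.60 CPM in siCtrl and 49.0 ± 1.10 CPM in siAldoa (SD, n = 3 each), with overlapping groups (adjusted p = 0.847).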
